A study of Drosophila melanogaster with 27 samples.

Results

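The genes described are those of the Drosophila melanogaster mitochondrial genome, taken as every row of the count tables whose FlyBase symbol starts with mt:. They were 36 of 16257 genes: 13 protein-coding genes, 2 rRNA genes and 21 tRNA genes. Of these, 23 lie on the plus strand and 13 on the minus strand of the mitochondrial genome. mt:ori and mt:tRNA:Val-TAC were not analysed here. The rule used names only and no measured value, although it was set with earlier results of these data known. Positions below are those of the mitochondrial genome in the Ensembl release 115 annotation of assembly BDGP6.54. The authors counted with an earlier FlyBase annotation.

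RNA-seq was performed on larval ovaries during terminal filament formation, in 27 libraries with 3 replicates in each of 9 groups. Germ cells were sorted by FACS from ovaries in which nos:GAL4 drove a nuclear GFP (UAS:Green Stinger), somatic cells were sorted from ovaries in which bab:GAL4 drove it, and whole ovaries were dissected from the Oregon R strain. Each tissue was sampled at an early stage (72 h after egg laying), a mid stage (96 h) and a late stage (120 h, labelled White Pupae). Replicates of sorted cells each pooled ovaries, and p-values below measure the spread between these libraries. The GAL4 drivers mark cells by promoter activity, so a sorted library holds the cells that expressed GFP and any that passed the gate with them. In the sorting crosses the UAS line was the mother, so both sorted tissues carry its mitochondrial genome and whole ovaries carry that of Oregon R. Sorted cells also went through dissociation and FACS, and strain, handling and tissue cannot be told apart between whole ovaries and sorted cells, which are therefore only set side by side. The nos:GAL4 stock also carried UAS-Dcr-2, whereas the bab:GAL4 stock was an insertion in bab1 and did not list it. Driver genotype and tissue therefore cannot be told apart in the comparisons of germ with somatic cells.

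The mitochondrial genome encodes core subunits of 4 enzymes of oxidative phosphorylation, the rRNAs of the mitochondrial ribosome, and tRNAs. Long transcripts of each strand are cut into the single RNAs, with tRNAs often marking the cuts, and most of the mRNAs then gain a poly(A) tail. All other mitochondrial proteins, among them the remaining subunits of the same enzymes, are encoded in the nucleus. In flies, mitochondria are inherited through the female germ line, and mitochondrial DNA is replicated and selected there.

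Depth was between 9680615 and 72875881 counts per library, and the shallowest was replicate 1 of mid germ cells. All mid germ cell libraries had counts on few genes, 7582, 8891 and 8596 in replicates 1, 3 and 4. Every other library had counts on 9152 genes or more. The 7 germ cell markers, vas and nanos among them, summed to between 2360 and 5033 CPM (counts scaled to the total of the library) in germ cell libraries, against 11.3 to 36.2 CPM in somatic libraries. The separation was less complete in the other direction. The 5 somatic markers (bab1, bab2, tj, zfh1, en) summed to between 105 and 1262 CPM in germ cell libraries, against 981 to 1693 CPM in somatic libraries. Mid germ cell replicate 1 also held 2590 CPM of 6 fat body genes, against at most 14.3 CPM in any other sorted library.

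Mitochondrial genes took between 1.74% and 21.8% of all counts, with a median of 6.23% over the 27 libraries. In germ cells the share was 1.74, 4.10 and 4.17% in early libraries, 21.8, 8.74 and 2.33% in mid libraries (replicates 1, 3 and 4), and 3.55, 2.48 and 5.18% in late libraries. In somatic cells it was 5.43, 5.96 and 5.27% early, 6.49, 7.48 and 5.70% mid, and 6.74, 6.23 and 6.37% late. Every early and late germ cell library lay below every somatic library, whereas mid germ cells held both the highest and one of the lowest shares of the series. Whole ovaries had 6.89, 9.0 and 10.5% early, 5.91, 9.18 and 7.11% mid, and 6.24, 7.58 and 5.41% late. As mean ± SD of 3 libraries, the early, mid and late shares were 3.34 ± 1.38, 11 ± 9.93 and 3.74 ± 1.36% in germ cells, 5.55 ± 0.359, 6.56 ± 0.894 and 6.45 ± 0.262% in somatic cells, and 8.79 ± 1.80, 7.40 ± 1.66 and 6.41 ± 1.09% in whole ovaries. Shares are sums over the members and were not tested.

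**Figure D1:**
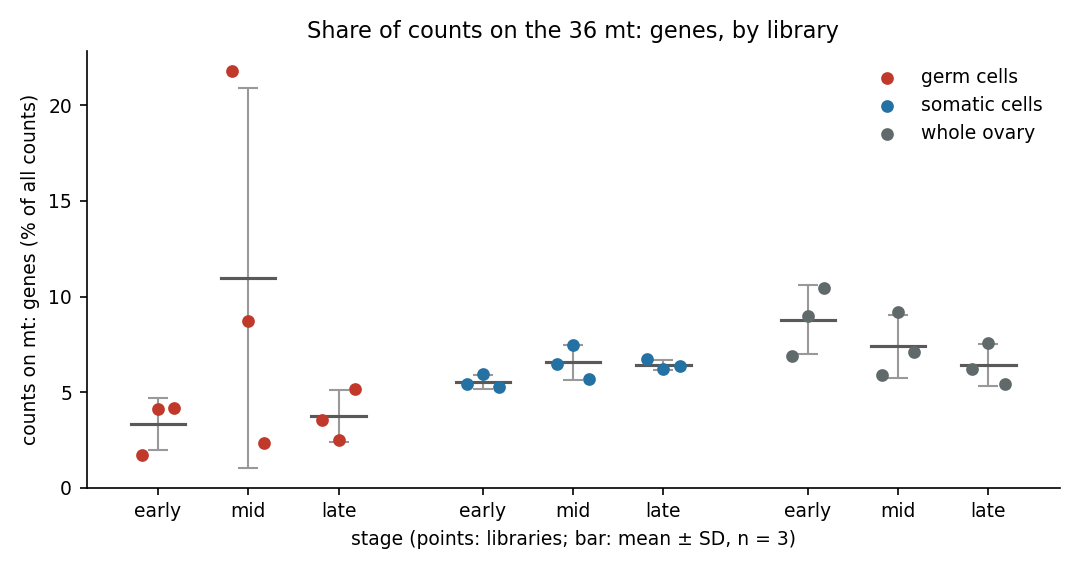
Share of all counts on the 36 mitochondrial genes (vertical axis, % of counts) in each library, by tissue and stage, with the mean and SD of 3 libraries. Somatic libraries sat between 5.27 and 7.48%, while the mid germ cell libraries spread from 2.33 to 21.8%.

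The share moved with summed markers of other cells in some groups and not in others. In germ cells its order followed the summed somatic markers within each stage. Early libraries with 105, 420 and 606 CPM of these markers had shares of 1.74, 4.10 and 4.17%. Mid libraries with 362, 884 and 1262 CPM had 2.33, 8.74 and 21.8%, and late libraries with 588, 626 and 1177 CPM had 2.48, 3.55 and 5.18%. Among single markers, bab2 and zfh1 followed the share within every stage, and bab1 in none. tj did not follow it in mid or late libraries, and en did not in early or mid ones. bab1 had 19.2, 38.3 and 25.2 CPM in early replicates 1, 2 and 3. en had 0, 2.67 and 0 CPM in mid replicates 1, 3 and 4. tj had 99.8, 52.3 and 69.0 CPM in mid replicates 1, 3 and 4. It had 53.0, 77.0 and 160 CPM in late replicates 2, 3 and 4. In mid somatic libraries the sum ran opposite to the share, at 1447, 1380 and 1693 CPM for 6.49, 7.48 and 5.70%. The shares of 8.74 and 21.8% are above the highest share of any somatic library, 7.48%. In whole ovaries, 4 muscle genes (Mhc, Mlc2, up, wupA) were summed. Early replicates 1, 2 and 3 had 78.9, 249.8 and 445 CPM of them, the order of their shares. Mid replicates 1, 2 and 3 had 52.5, 177 and 38.3 CPM. Of these, replicate 2 had the highest share, but replicates 1 and 3 were in the reverse order. Late whole ovaries held 2.14 to 2.69 CPM of muscle genes, with shares of 5.41 to 7.58%. In mid replicates 1, 2 and 3 the 6 fat body genes summed to 31437, 63513 and 57638 CPM, the order of the shares. Their late sums, 8656, 10836 and 6125 CPM, also followed the shares, and their early sums, 6060, 1835 and 1663 CPM, ran opposite. Early somatic marker sums (688, 857 and 1245 CPM) and germ cell marker sums (725, 728 and 1176 CPM) also followed the shares. At mid and late these marker sums did not. The part of these cells in the share was not tested, and in whole ovaries fewer cells of a type and less RNA per cell cannot be told apart.

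**Figure D2:**
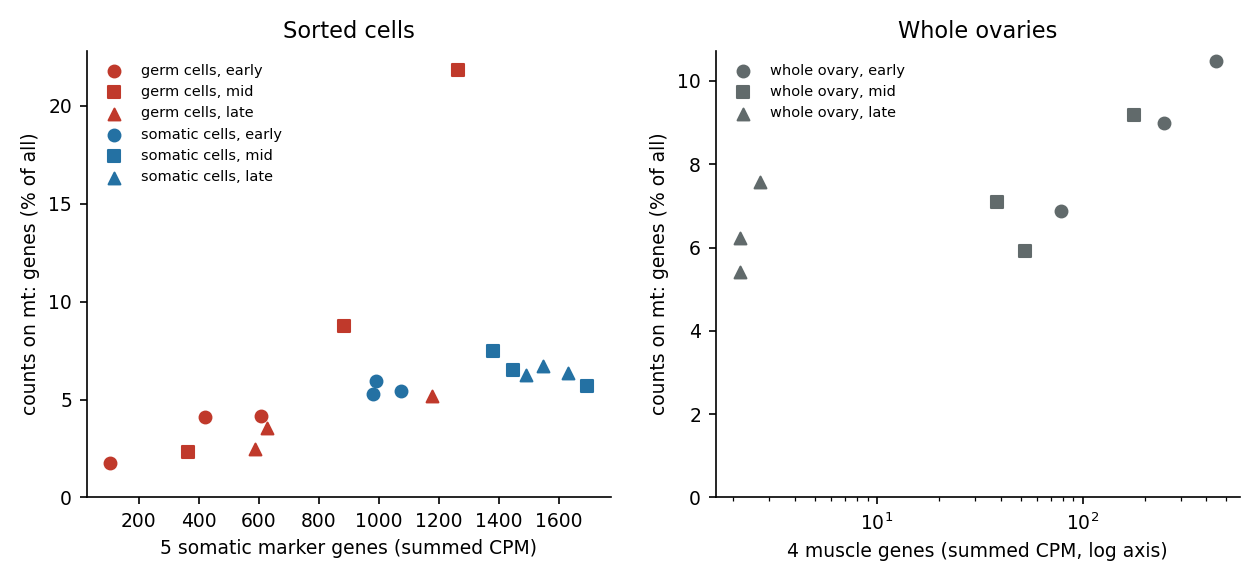
Share of counts on mitochondrial genes (vertical axes, %) against the summed CPM of 5 somatic markers in sorted libraries (left) and of 4 muscle genes in whole ovaries (right, log axis), each point 1 library. Within each stage the germ cell libraries with more somatic marker counts had the larger share, and mid replicate 1 stood at 21.8%.

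The rRNA genes held 30.4 to 51.9% of mitochondrial counts, almost all of them on mt:lrRNA, the large ribosomal RNA (mitochondrial genome 12735 to 14058, minus strand). It was the gene with the most counts in 25 of 27 libraries. The exceptions were early germ cell replicate 1 and mid germ cell replicate 4, which also had the 2 lowest mitochondrial shares of the series, 1.74 and 2.33%. mt:srRNA, the small ribosomal RNA (14131 to 14916, minus strand), had 195 to 2391 times fewer counts than mt:lrRNA, although both lie close together on 1 strand. The libraries were made from poly(A)-selected RNA, so the counts show the part of each RNA that was captured that way. In levels scaled by TMM, edgeR's factors for library composition, mt:lrRNA had 4765, 16445 and 17550 CPM in early, 123932, 34376 and 6409 CPM in mid and 12479, 8052 and 17464 CPM in late germ cells. It had 21998, 29569 and 20782 CPM in early, 28214, 30090 and 18043 CPM in mid and 28336, 26860 and 26074 CPM in late somatic cells. With all libraries in the fit, neither rRNA gene passed the test in any comparison.

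Per unit of length, the protein-coding genes kept a similar order in the 3 tissues. mt:CoI, the catalytic subunit of complex IV, led, and counts per kilobase are given as a percent of mt:CoI in the same library, as the median of 9 libraries. mt:CoII, also of complex IV, stood at 68.6% in germ cells, 63.1% in somatic cells and 55.7% in whole ovaries, and mt:ATPase6, of ATP synthase, at 68.1, 81.3 and 56.8%. mt:Cyt-b, the mitochondrial subunit of complex III, stood at 43.6, 43.9 and 41.3%. These 3 genes followed mt:CoI in every tissue, with ranges over libraries that overlapped between mt:CoII and mt:ATPase6. The 7 genes of complex I were lower. mt:ND1 was the highest of them at 37.6, 22.7 and 19.4%, and mt:ND6 and mt:ND4L were the lowest, at 0.944 and 0.516% in germ cells, 0.671 and 0.525% in somatic cells and 0.794 and 1.12% in whole ovaries. mt:ND4L shares 1 base with mt:ND4, and mt:ATPase8 shares 7 bases with mt:ATPase6, so the counts of these neighbours can be split between them. mt:CoIII, whose first base is shared with mt:ATPase6, was at 18.6% in germ cells, 20.5% in somatic cells and 31.0% in whole ovaries. Somatic libraries ranged from 19.0 to 23.3% and whole ovaries from 28.0 to 34.6%.

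**Figure D3:**
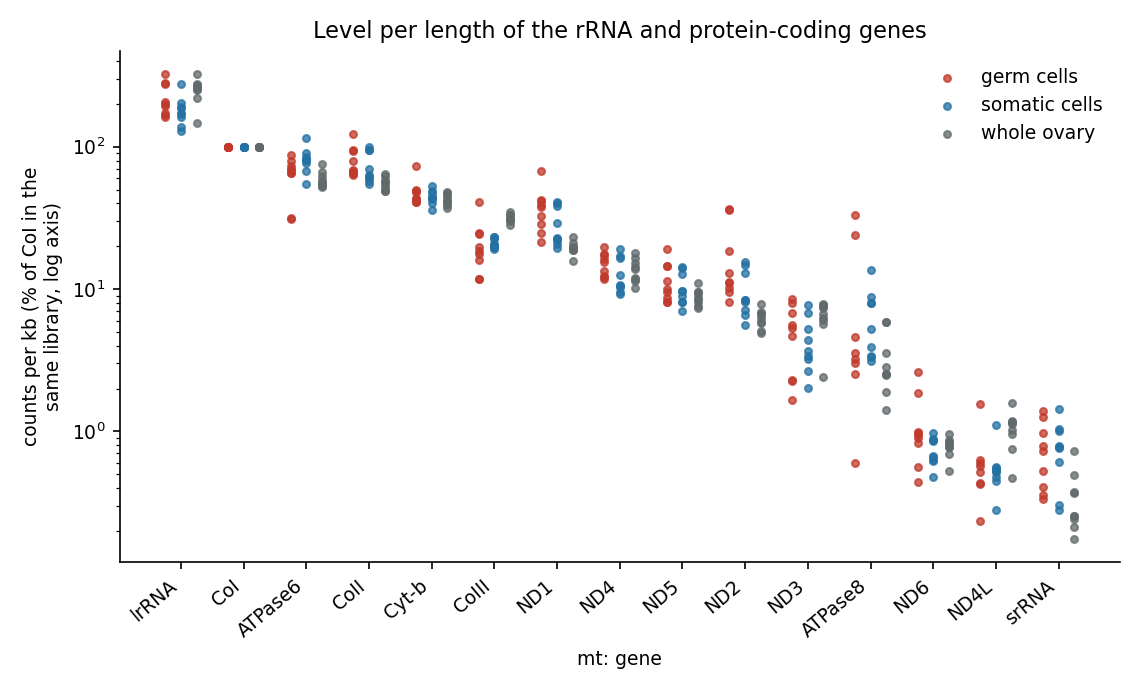
Counts per kilobase of the 13 protein-coding and 2 rRNA genes as a percent of mt:CoI in the same library (log axis), 1 point per library, coloured by tissue. mt:lrRNA was above mt:CoI in every library, and mt:srRNA, mt:ND4L and mt:ND6 were at most 2.62% of it. 1 library with no counts on mt:ATPase8 and mt:ND4L is not drawn for those genes.

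The 21 tRNA genes were barely covered. They are 62 to 71 bases long and reads were 50 bases long, and a read that crosses from a tRNA into a neighbouring gene does not lie within one annotated transcript. Of them, 16 never exceeded 100 counts in any library, 1 (mt:tRNA:Thr-TGT) had 0 counts in all 27, and 1 (mt:tRNA:Cys-GCA) had counts in all. The tRNA gene with the most counts was mt:tRNA:Lys-CTT, which lies between mt:CoII and mt:tRNA:Asp-GTC, with 11221 counts in total. Its TMM-scaled levels were 25.95, 24.8 and 29.8 CPM in late somatic cells, 5.70, 25.1 and 24.8 CPM in mid and 0.669, 2.33 and 0 CPM in early ones. In the edgeR test with all libraries it passed in no comparison (late against early somatic cells, adjusted p = 0.018), whereas DESeq2 called it there, as did edgeR without early somatic replicate 3. mt:tRNA:Cys-GCA overlaps mt:tRNA:Trp-TCA by 8 bases on the opposite strand, and whether strand was used in counting is not given in the sources used here.

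The first question of the study design is how expression changed with stage within a tissue. In somatic cells 1 of the 20 mitochondrial genes tested passed an adjusted p of 0.01 for mid against early, and 1.90% of all 9931 genes tested did. None of 20 passed edgeR's test for late against mid, where 6.56% of all genes did, although 3 had an unadjusted p under 0.05 (29.4% of all genes did), DESeq2 called 2 (and 10.7% of all genes) and limma voom none, and 2 of 20 passed for late against early, where 23.0% did. All 3 calls were increases, although 1 was of a gene without counts in any early library, which could only be called higher. DESeq2 called 4 members for mid against early and 5 for late against early, beside 6.55 and 24.1% of all genes. Here and below, DESeq2's shares are over every gene with counts in the fit, 13243 in somatic cells. That number includes any genes without an adjusted p, so these shares have another base than edgeR's.

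mt:CoI rose between the early and late somatic stages. Its TMM-scaled levels were 20300, 18251 and 21850 CPM in late libraries and 12519, 12414 and 12602 CPM in early libraries, with 17357, 20129 and 16141 CPM in mid libraries. Every mid and late library was above every early one. Late against early, the log2 fold change was 0.70 (SE 0.13, n = 3 each, edgeR quasi-likelihood test, adjusted p = 0.0016), a 1.62-fold difference, and it passed under all 6 other settings and in each of the 9 fits that left out 1 library. Mid against early, it was 0.50 (SE 0.13, edgeR adjusted p = 0.0383). The 2 other mitochondrial genes of complex IV did not pass in edgeR, and their difference from mt:CoI was not tested. mt:CoII had 5442, 4979 and 5566 CPM in late and 5303, 5521 and 5318 CPM in early somatic libraries, which overlap, with a log2 fold change of 0.00 (SE 0.11, edgeR adjusted p = 0.988). mt:CoIII had 2148, 1851 and 2135 CPM in late and 1316, 1488 and 1320 CPM in early libraries, with no overlap, but missed the threshold at 0.58 (SE 0.16, edgeR adjusted p = 0.0129). Without mid replicate 3 its adjusted p was 0.0074, and DESeq2 called it for late against early (adjusted p = 0.0012) and for mid against early (adjusted p = 0.0092).

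mt:ND3, a subunit of complex I, was highest at the mid stage in somatic cells. It had 270, 360 and 196 CPM in mid libraries, against 93.0, 125 and 76.7 CPM in early libraries, and 172, 143 and 101 CPM in late ones. Mid libraries did not overlap with early or late libraries. Mid against early, it rose by a log2 fold change of 1.48 (SE 0.27, 2.79-fold, edgeR adjusted p = 0.00977). That call was just inside the threshold, and it was lost when any of 7 of the 9 somatic libraries was left out, with adjusted p-values between 0.00599 and 0.0348 over the 9 fits. Only without mid replicate 3 or late replicate 3 did it hold. With all libraries it also passed under all 6 other settings. Late against mid, the log2 fold change was -0.97 (SE 0.26, edgeR adjusted p = 0.0315). DESeq2 (adjusted p = 0.0018) and edgeR with a replicate block (adjusted p = 0.0065) called that fall. mt:ATPase8 reached 1.68 (SE 0.43, edgeR adjusted p = 0.0339) in the same comparison and passed without late replicate 2 (adjusted p = 0.0090).

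mt:tRNA:Ser-GCT (6191 to 6258, plus strand), the fourth gene downstream of mt:ND3, was the third call. It had 48, 30 and 21 counts in late, 48, 42 and 15 counts in mid and 0 counts in each of the early somatic libraries. Late libraries averaged 2.14 ± 0.732 CPM (SD, n = 3), 23.8-fold the floor of 3 counts in the shallowest early library, 0.0896 CPM (edgeR adjusted p for late against early = 0.0027). The lowest late library was 16.8-fold that floor. The gene entered the test only through mid and late libraries, so this call could only be an increase. Early libraries were deeper but had counts on fewer genes, 9571, 9275 and 9300, against 11364, 11314 and 10616 in late ones. It lost its call without late replicate 1 (adjusted p = 0.0175) or late replicate 2 (adjusted p = 0.0107).

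None of the other protein-coding or rRNA genes passed edgeR's test with all somatic libraries, whereas DESeq2 also called mt:ATPase8 for late against mid (adjusted p = 0.0001) and for late against early (adjusted p = 0.0098). The 4 protein genes of the minus strand (mt:ND1, mt:ND4, mt:ND4L and mt:ND5) had log2 fold changes between -0.17 and 0.21 for late against early, and the 9 of the plus strand between -0.24 and 1.12. Mid against early, 6 of the 13 protein-coding genes were above 0 and 7 below. mt:ND2, mt:CoII and mt:ND1 were lower in every mid than in every early somatic library. mt:ND2 had 825, 883 and 871 CPM mid and 1291, 1228 and 1090 CPM early. These falls did not pass edgeR's test, and the share of all genes with that order is not given here. Ratios of counts also differed between stages, and these were not tested. mt:CoI had 3.73, 3.67 and 3.93 counts per count of mt:CoII in late, 3.55, 4.08 and 3.22 in mid and 2.36, 2.25 and 2.37 in early somatic libraries. Minus-strand genes held 13.1, 12.0 and 13.8% of the counts of protein-coding genes in late somatic libraries, 13.6, 12.9 and 15.4% in mid and 18.6, 18.3 and 18.9% in early ones. mt:ND2, a complex I subunit at the start of the plus-strand genes, had 5.54, 3.74 and 5.58 counts per 100 of mt:CoI in late and 10.3, 9.90 and 8.65 in early libraries. Early libraries stood apart in all 3 ratios. Counts of mt:CoI enter each of them, so the ratios are not independent and in part restate its rise given above. Pxn, which encodes the matrix enzyme peroxidasin and was listed as a hemocyte marker, changed over the same stages, with 1542 to 1818 CPM in late and 9.49 to 64.5 CPM in early somatic libraries, while Hml and NimC1, the other hemocyte markers, were at most 0.711 CPM in every somatic library. The part of other cells in these ratios was not tested.

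**Figure D4:**
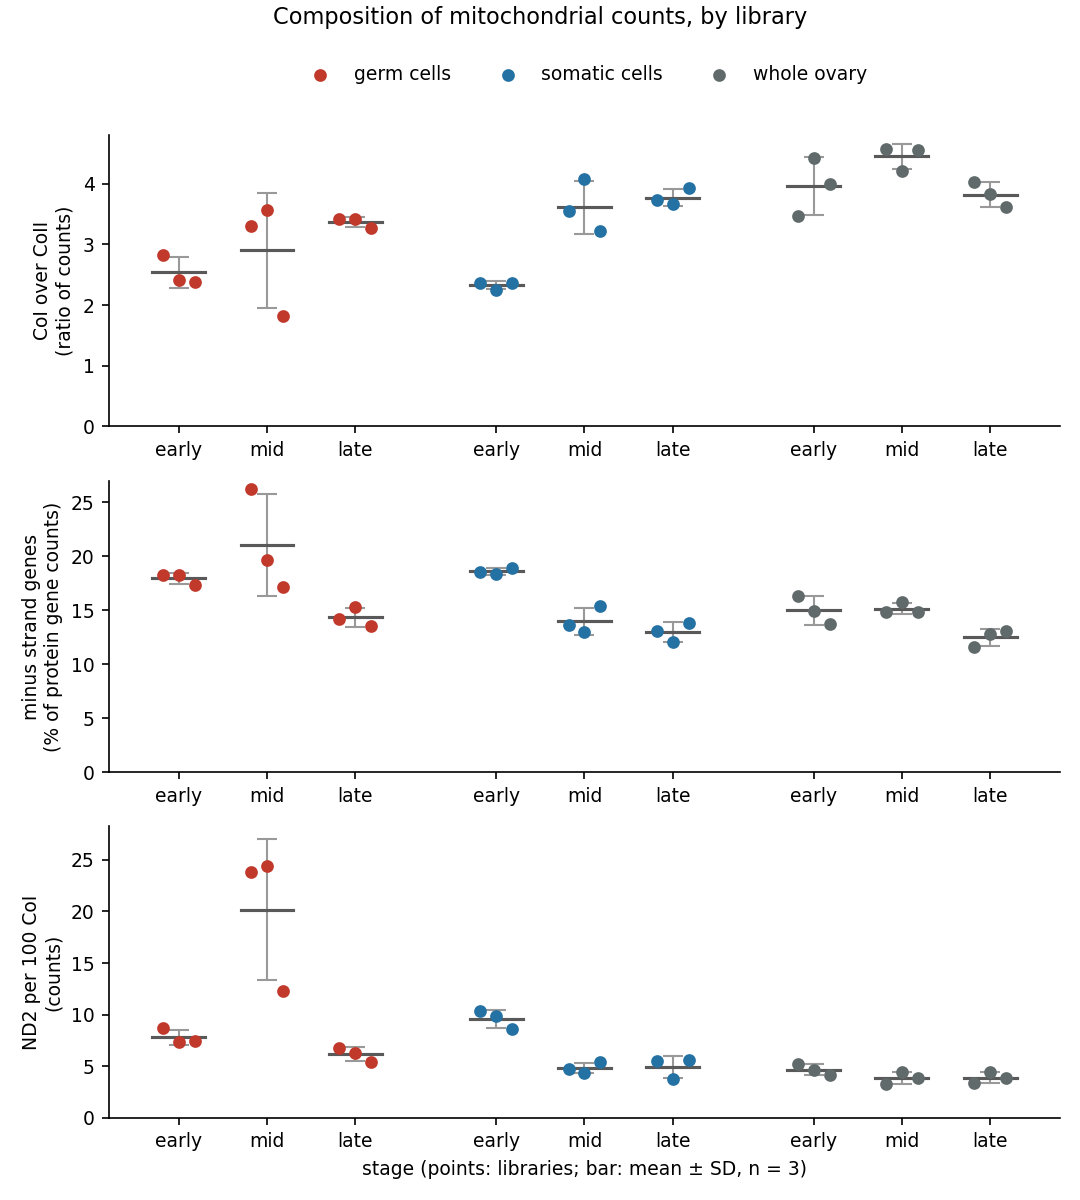
Ratio of counts of mt:CoI to mt:CoII (top), percent of protein-gene counts on the 4 minus-strand genes (middle) and counts of mt:ND2 per 100 of mt:CoI (bottom) in each library, with mean and SD of 3. Early somatic libraries stood apart from mid and late ones in all 3, and mid germ cell replicates 1 and 3 were highest for mt:ND2, at 23.9 and 24.4. Counts of mt:CoI enter all 3 ratios.

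Some nuclear genes of the same enzymes fell in late somatic cells. Among 66 tested nuclear subunits of complexes I, III, IV and V and cytochrome c, 33 fell and none rose in late against early somatic cells, with a median log2 fold change of -0.95, where the median of all genes was 0.02 and 11.3% of them fell. Cyt-c-p, cytochrome c, fell by 2.29 (SE 0.22, edgeR adjusted p = 2.46e-05), and ND-39 and ND-51, subunits of complex I, fell by 1.35 (SE 0.16) and 1.21 (SE 0.14). Of 73 proteins of the mitochondrial ribosome, 27 fell and none rose, with a median of -0.92. Of 31 nuclear genes for mitochondrial RNA, DNA and translation factors, 6 fell and none rose, with a median of -0.48. They included the translation factor mEFTu1 (-1.73, SE 0.20), the RNA-binding protein Lrpprc2 (-0.76, SE 0.14) and the tRNA-processing enzyme RNaseZ (-0.94, SE 0.18). The 13 protein-coding mitochondrial genes had a median of 0.35, 1 having risen and none having fallen. DESeq2 with its own size factors, RLE factors, and library sizes without mitochondrial genes gave medians of -0.94 to -0.96 for the enzyme subunits.

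In germ cells no gene of the 10340 tested passed at any stage comparison, so 0% of all genes and none of the 20 mitochondrial genes tested did. At an unadjusted p of 0.05, 13 members passed for mid against early, 10 for late against mid and none for late against early, beside 18.8, 11.6 and 6.56% of all genes. DESeq2 called 5, 2 and 0 members, beside 4.10, 1.84 and 1.07% of all genes, and limma voom none. The spread between replicates was wider than elsewhere. The common biological coefficient of variation was 0.842 in germ cells, 0.516 in somatic cells and 0.307 in whole ovaries.

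The mid germ cell libraries differed widely from each other. mt:CoI had 44532, 19983 and 3854 CPM in replicates 1, 3 and 4 of the mid stage, against 3444, 6776 and 7356 CPM at the early stage, and 7006, 5372 and 12190 CPM at the late stage. mt:ND2 had 10625, 4879 and 473 CPM in mid, 298, 496 and 550 CPM in early and 477, 340 and 660 CPM in late libraries. Replicates 1 and 3 were above all early and late libraries in both genes, and replicate 4 lay within their range. For mid against early the fitted log2 fold change of mt:ND2 was 3.56 (SE 0.87, edgeR adjusted p = 0.159), and without replicate 4 it was 4.16 (SE 0.44, edgeR adjusted p = 0.0024). Without replicate 4, 6 of 20 members passed, all higher at mid, beside 4.40% of 11033 genes. They were mt:ND2, mt:ND5, mt:ND6, mt:ATPase8, mt:tRNA:Cys-GCA and mt:tRNA:Lys-CTT, of which the tRNA genes are named after their values were seen. Without replicate 1 none of them passed, and neither did any other gene.

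Replicates 1 and 3 also differed in composition. mt:ATPase8, a short subunit of ATP synthase (3907 to 4068, plus strand), had 25.4 and 18.5 counts per 100 of mt:ATPase6 in them, 0 in replicate 4 and at most 6.01 in the other 24 libraries. mt:ND2 had 23.9 and 24.4 counts per 100 of mt:CoI in them, 12.3 in replicate 4 and 5.42 to 8.66 in the other germ cell libraries. mt:ND3 was lower, with 5.32 and 3.82 counts per 1000 of mt:CoI in these replicates and 5.19 in replicate 4, against 10.9 to 19.7 in early and late germ cells. Replicate 1 carried the fat body genes given above, and replicate 3 held 6.23 CPM of them. Replicate 4 had 36568 counts on mt:ATPase6 beside its 0 on mt:ATPase8. The part that the low number of genes with counts in mid germ cells had in these values was not tested. Between late and early germ cells the groups overlapped for 14 of the 15 protein-coding and rRNA genes. The exception was mt:ND3, higher in every late library, as were 13.2% of all genes, with 138, 98.3 and 190 CPM in late and 37.4, 83.6 and 94.8 CPM in early libraries (log2 fold change 0.999, SE 0.72, edgeR adjusted p = 0.9997).

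In whole ovaries no member of the 23 tested passed for mid against early, late against mid or late against early, where 0.994, 14.8 and 21.9% of all 10060 genes tested did. By an unadjusted p of 0.05 the counts were 0, 4 and 7, beside 21.3, 44.9 and 45.0% of all genes. DESeq2 called 0, 0 and 3 members, beside 4.71, 19.1 and 22.1% of all genes, and limma voom none. The direction was common to the genes, however. All 15 protein-coding and rRNA genes had a log2 fold change below 0 for late against early, between -1.04 and -0.17 with a median of -0.63, where the median of all genes was -0.05. In 6 of the 15 every late library was below every early one, a pattern found in 24.1% of all genes. mt:ND5, mt:ND4 and mt:ND1, the 3 that DESeq2 called, are minus-strand genes of complex I. mt:ND4 had 1314, 1508 and 1103 CPM in late and 2207, 2730 and 2484 CPM in early libraries, with no overlap (log2 fold change -0.92, SE 0.26, edgeR adjusted p = 0.0210). mt:ND5 had 1095, 1315 and 915 CPM in late and 1753, 2189 and 2905 CPM in early libraries (-1.04, SE 0.28, edgeR adjusted p = 0.0178). Without mid replicate 2, mt:ND4 passed (adjusted p = 0.0098). These genes of 1 genome and 1 set of long transcripts are not independent of each other.

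Whole ovaries held other tissues in amounts that changed with stage. The 6 fat body genes summed to 6125 to 10836 CPM in late, 31437 to 63513 CPM in mid and 1663 to 6060 CPM in early libraries, and the muscle genes as above. Early replicate 3, with the most muscle counts, also stood apart from the 8 other whole ovaries in composition. Its rRNA genes held 35.7% of mitochondrial counts, against 44.1 to 51.9% in the others. The part of these tissues in the stage differences was not tested. Of 65 tested nuclear genes of the same enzymes, 15 fell and none rose for late against early, with a median of -1.13, beside 13.5% of all genes that fell. DESeq2 called 34 of these subunits lower, of 77 it tested, and 12.6% of all genes. Of 31 mitochondrial expression and DNA genes, 11 fell and none rose, among them PolrMT, the mitochondrial RNA polymerase (-0.88, SE 0.12, edgeR adjusted p = 0.000614), and MTPAP, the mitochondrial poly(A) polymerase (-1.01, SE 0.14).

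The second question of the design is how germ cells differed from somatic cells. Over the mean of the 3 stages 1 of 21 mitochondrial genes tested passed, mt:ATPase6, and 25.3% of all 11243 genes did. mt:ATPase6 encodes a proton-channel subunit of ATP synthase (4062 to 4736, plus strand). In germ cells it had 987, 2189 and 2202 CPM early, 6138, 2716 and 1489 CPM mid and 2443, 1548 and 3744 CPM late. In somatic cells it had 3738, 6264 and 4684 CPM early, 6200, 7986 and 5820 CPM mid and 6895, 6454 and 5245 CPM late. The groups overlapped at the mid stage only, through replicate 1 of germ cells. The log2 fold change was -1.22 (SE 0.25, 0.429-fold, edgeR adjusted p = 0.0012), and it was called under all 6 other settings and in all 18 fits that left out 1 library. Without mid germ cell replicate 1, 6 members were called instead, all lower in germ cells: mt:ATPase6, mt:CoI, mt:CoII, mt:Cyt-b, mt:ND3 and mt:srRNA, beside 29.7% of all genes.

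Stage by stage no member of 21 passed, where 4.79% of all genes did for early, 7.47% for mid and 7.84% for late libraries. The numbers at an unadjusted p of 0.05 were 6, 7 and 4, beside 31.1, 34.3 and 30.8% of all genes. DESeq2 called 1, 2 and 0 members, beside 12.4, 14.2 and 13.3% of all genes, and limma voom 0, 1 and 0, beside 10.1% of all genes at mid. Among early libraries every germ cell library was below every somatic library in 13 of the 15 protein-coding and rRNA genes, and in 18.7% of all genes. Among late libraries this held for 14 of 15, and for 3036 of 11243 genes (27%). The log2 fold changes of the 15 genes had medians of -1.18 and -1.22, and ranged from -2.31 to -0.45 early and from -2.83 to 0.03 late, where the medians of all genes were 0.08 and 0.11. mt:ND3 was at the top of both ranges, with 138, 98.3 and 190 CPM in late germ cells, against 172, 143 and 101 CPM in late somatic cells. At the mid stage none of the 15 separated the tissues. mt:ND2 came closest to the threshold there, with a log2 fold change of 2.63 (SE 0.66, edgeR adjusted p = 0.0124), and with mid germ cell replicate 4 left out, 7 members were called, all higher in germ cells, beside 10.9% of all genes. Without mid germ cell replicate 1, mt:ND3 alone was called there, lower in germ cells, beside 9.05% of all genes. Without replicate 4, 1 member was also called early (mt:ND2) and 1 late (mt:CoI), both lower in germ cells, beside 7.42 and 12.8% of all genes.

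**Figure D5:**
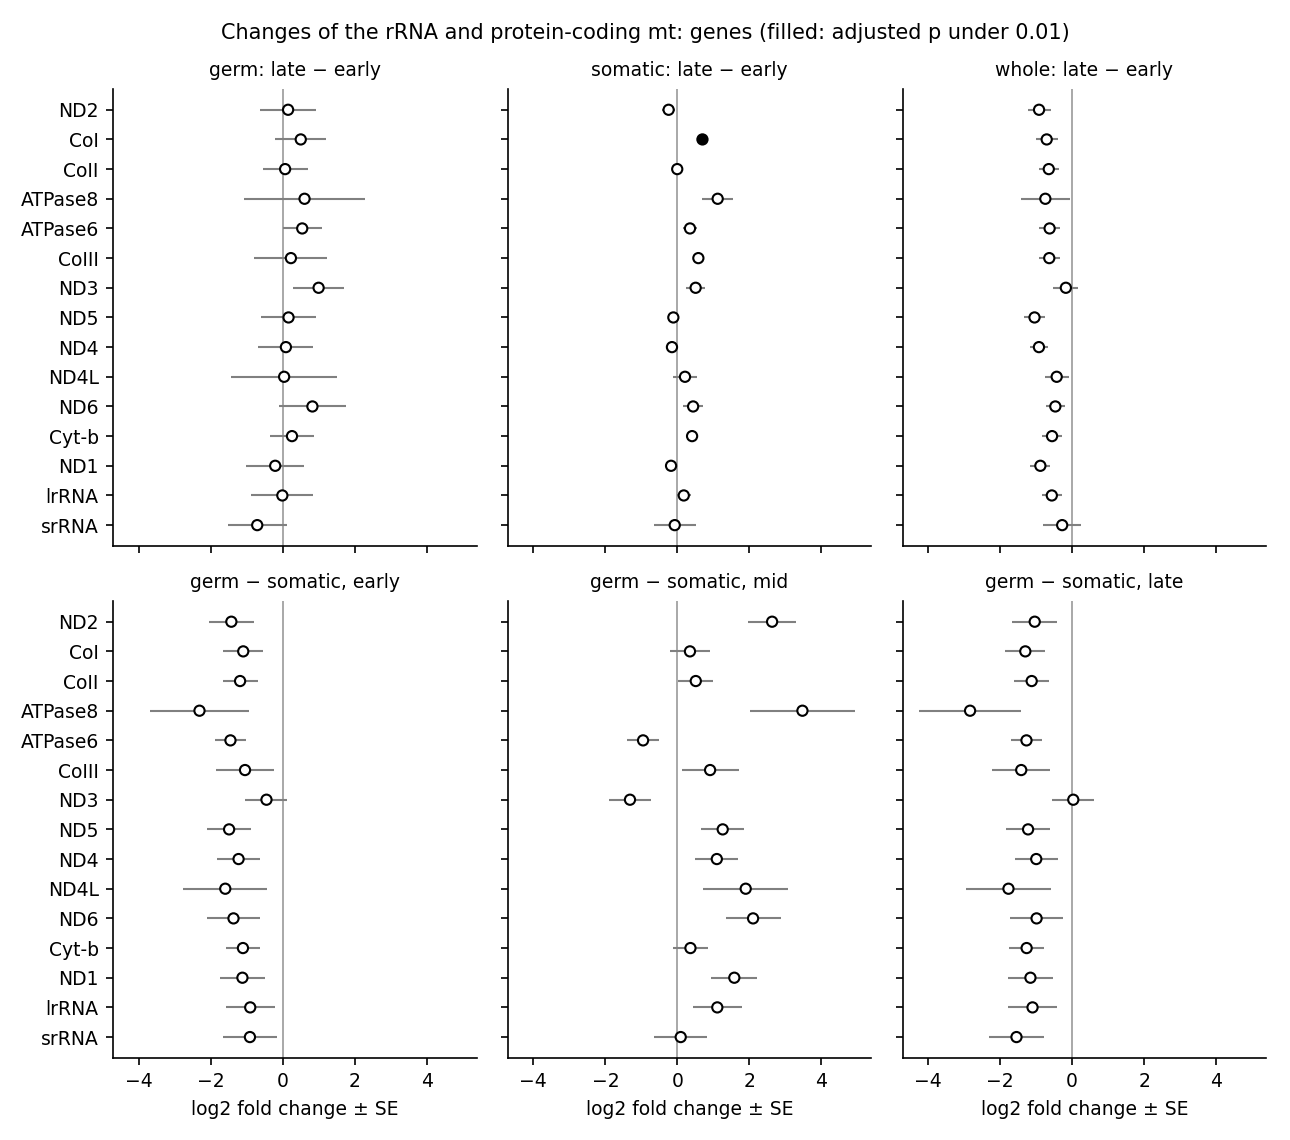
Log2 fold changes with SE of the protein-coding and rRNA genes in genome order, for late against early in each tissue (top row) and for germ against somatic cells at each stage (bottom row), where filled points had an adjusted p under 0.01. mt:CoI in somatic cells is the 1 filled point, and germ cells were below somatic cells in 15 of 15 genes early and 14 of 15 late.

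A difference between the tissues in the stage changes was tested as an interaction. No member of 21 passed for mid against early or for late against mid, where 0.0356 and 0.276% of all genes did, with medians over all genes of -0.15 and 0.20. At an unadjusted p of 0.05 the counts were 9 and 12, beside 12.8 and 18.9% of all genes, DESeq2 called 2 in each, beside 2.90 and 3.85% of all genes, and limma voom none. mt:ND2 had the smallest p in the mid against early interaction, at a log2 difference of 4.06 (SE 0.91, edgeR adjusted p = 0.0674). Without mid germ cell replicate 4, 8 and 10 members were called, beside 1.84 and 7.07% of all genes, and without replicate 1 none was, beside 0.218 and 0.511%. In both tests the outcome rested on which mid germ cell libraries were included.

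Among the nuclear genes for mitochondrial DNA and RNA factors, 6 of 31 were higher and none lower in germ cells over all stages, beside 12.7% of all genes that were higher. Whether this list differed from all genes was not tested. The 6 included Top3alpha, a topoisomerase found in nucleus and mitochondria (log2 fold change 1.12, SE 0.17, edgeR adjusted p = 6.86e-05), PolG1, the catalytic subunit of the mitochondrial DNA polymerase (1.06, SE 0.23), and mtDNA-helicase, the replicative helicase (0.78, SE 0.17). Of 68 tested nuclear enzyme subunits, 7 were lower and none higher in germ cells, with a median of -0.16, where 12.6% of all genes were lower, so the share was near that of all genes. Among the 7 were UQCR-C1 of complex III (-0.66, SE 0.12) and ATPsynC of ATP synthase (-0.82, SE 0.16).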

How the data were processed

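The authors aligned single-end 50-base reads of poly(A)-selected RNA with STAR 2.7.6a and deposited RSEM 1.3.3 expected counts per gene, with lanes and runs of a sample summed. Whether strand was used is not given in the sources used here. The deposited expected counts were rounded to whole numbers and tested in R 4.3.3 with edgeR 4.0.16 (filterByExpr, TMM, robust quasi-likelihood test, Benjamini-Hochberg adjustment over all genes tested, threshold 0.01). Whole ovaries, somatic cells and germ cells were fitted apart (9 libraries each), and germ against somatic cells on 18 libraries. DESeq2 1.42.0, limma 3.58.1 (voom), RLE factors, library sizes without mitochondrial genes, no filter, a replicate block, and leaving out each library were tried. Leaving out all mid germ cell libraries was added after seeing the data. Depth was 9680615 to 72875881 counts per library, where 3 counts are 0.310 to 0.0412 CPM, and this floor covers counting error only. Named were all protein-coding and rRNA genes, tRNA genes called or with the most counts, and up to 3 nuclear list genes per direction by adjusted p. Members and lists were chosen with earlier results of these data known. Scripts were tested on simulated data. No sequences were printed. Figures were drawn with matplotlib 3.10.9.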

Additional observations from a re-analysis of the deposited data

How the results depend on the processing

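None of the 16 single-gene fold changes recomputed under the alternatives changed sign. DESeq2 changed the number of mitochondrial genes called to 3 for late against early whole ovaries, 4 for mid against early, 2 for late against mid and 5 for late against early somatic cells, 5 for mid against early and 2 for late against mid germ cells, 1 for early and 2 for mid germ against somatic cells, and 2 in each interaction. RLE factors and limma voom each called 1 at the mid stage between germ and somatic cells. With the replicate block, 1 gene was called for late against mid and 1 for late against early somatic cells, where mt:tRNA:Ser-GCT had an adjusted p of 0.0127. Same-numbered libraries had correlations of their deviations between -0.320 and 0.364, so the numbers were not taken as pairs. Leaving out 1 library gave 0 to 1 calls for late against early whole ovaries, 0 to 1, 0 to 1 and 1 to 3 for mid against early, late against mid and late against early somatic cells, and 0 to 6 for mid against early germ cells. Between germ and somatic cells it gave 1 to 6 over all stages, 0 to 1 early, 0 to 7 mid and 0 to 1 late, and 0 to 8 and 0 to 10 in the interactions. Calls over all genes moved with the same omissions. Without mid germ cell replicate 4 they went from 0 to 4.40% for mid against early germ cells. They went from 7.47 to 10.9% between the tissues at mid, and from 0.276 to 7.07% in the late against mid interaction. Shares of all genes under RLE factors and the replicate block are not given here. Over TMM-scaled library sizes the mean share was 6.13% in early, 7.03% in mid and 7.45% in late somatic cells, so that mid was below late, whereas over all counts mid, at 6.56%, was above late, at 6.45%. The cause of these shifts was not tested. Without the mid germ cell libraries, late against early germ cells still gave 0 calls. For those 16 fold changes, 245 values under the alternatives kept their side of the threshold, 21 newly passed and 10 no longer passed. Other members also newly passed under some alternatives. The 3 replicates per group, and a coefficient of variation of 0.842 in germ cells, limit what could be detected.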
